A study of Mus musculus with 2 samples.

Results

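The NF-κB subunits and their inhibitors were described at the transcript level in mouse eosinophils of the resting bone marrow. They were 10 genes chosen by name, the subunits Rel, Rela, Relb, Nfkb1 and Nfkb2 and the inhibitors Nfkbia, Nfkbib, Nfkbie, Nfkbiz and Tnfaip3, and all 10 were among the 23343 gene symbols of the tables. Cells positive for CCR3 and SiglecF were sorted from pooled marrow of naïve C57BL6J animals in 2 independent sorts, and stranded poly(A) RNA libraries were made from each. Both libraries belong to 1 group with no treatment, no genetic change and no second cell type, and the sources used here do not give the number, age or sex of the pooled mice. Levels are therefore described with their spread over the sorts, and the sorts are compared with each other as libraries and not as conditions.

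NF-κB is a family of dimeric transcription factors built from proteins that share a Rel homology domain. Rel, Rela and Relb encode subunits with an activation domain, and Nfkb1 and Nfkb2 encode the precursors p105 and p100, which are processed to p50 and p52. IκB proteins hold the dimers inactive in the cytoplasm until an IκB kinase marks them for degradation, and a separate, slower route processes p100 and releases dimers of p52 with RelB. In granulocytes the family is known for inducing survival genes and cytokines, and it also induces several of its own inhibitors.

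The 10 genes took 4907 of the 10087743 reads of sort 1 and 4852 of the 9264150 reads of sort 2. All 5 eosinophil markers were at 10 or more in RPKM, the reads scaled by transcript length and sequencing depth, in each sort, with Ccr3 at 114 and 118 and Siglec5, the table's symbol for the SiglecF gene, at 32.1 and 32.2. The other 3, Prg2, Epx and Il5ra, were higher in sort 2 with log2 ratios of 0.63, 0.49 and 0.60, none past a fold of 2, and the 5 summed to 1178 and 1655. Neutrophil markers were also high, with 7 of 7 analysed at 10 or more and a summed RPKM of 723 and 571, while no T or NK cell marker of 5 reached an RPKM of 1 in both sorts. The share of each cell type in the reads of an NF-κB gene cannot be read from bulk RNA, and fewer cells of a type and less RNA per cell cannot be told apart. Xist, the RNA of the inactive X chromosome, had 47487 and 5 reads and the Y-linked Kdm5d 0 and 756, so sex-linked transcripts separated the sorts.

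Promoters of several of these genes hold matches to the κB consensus, and their sequences are shown first because the tables list Tnfaip3 and Nfkb2 with alternative starts that have different upstream sequence. RefSeq promoter sequences on GRCm38.p6, the assembly of mm10, were found for 7 of the 10 genes, and Relb, Nfkb1 and Nfkbiz had no entry. The 250 bases before each start were searched on both strands for the κB consensus decamer. At least 1 match was present for 5 of 7 genes (71.4%), against 8.23% of all 27025 genes with an entry. Rela and Nfkbib had no match in these windows. Each window below runs 5′ to 3′ on the gene's strand and ends 1 base before the start, with matches in capitals, and a run longer than 10 capitals holds overlapping matches.
Rel, chr11:23770970-23771219, minus strand: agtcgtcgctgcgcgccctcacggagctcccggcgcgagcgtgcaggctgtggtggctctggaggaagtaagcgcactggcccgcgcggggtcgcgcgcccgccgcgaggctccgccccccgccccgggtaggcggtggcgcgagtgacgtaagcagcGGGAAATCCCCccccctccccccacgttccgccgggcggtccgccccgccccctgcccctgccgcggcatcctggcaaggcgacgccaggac
Nfkb2, first start, chr19:46304487-46304736, plus strand: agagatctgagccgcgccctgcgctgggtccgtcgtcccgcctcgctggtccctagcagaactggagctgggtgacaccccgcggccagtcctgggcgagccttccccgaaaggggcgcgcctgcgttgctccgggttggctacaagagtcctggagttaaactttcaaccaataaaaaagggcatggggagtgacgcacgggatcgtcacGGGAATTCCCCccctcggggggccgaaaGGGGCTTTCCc
Nfkbia, chr12:55492648-55492897, minus strand: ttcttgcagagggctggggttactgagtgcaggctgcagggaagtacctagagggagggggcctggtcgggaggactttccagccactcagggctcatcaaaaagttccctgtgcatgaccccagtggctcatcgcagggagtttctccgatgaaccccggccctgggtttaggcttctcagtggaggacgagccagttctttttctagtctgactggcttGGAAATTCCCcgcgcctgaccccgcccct
Tnfaip3, upstream start, chr10:19015411-19015660, minus strand: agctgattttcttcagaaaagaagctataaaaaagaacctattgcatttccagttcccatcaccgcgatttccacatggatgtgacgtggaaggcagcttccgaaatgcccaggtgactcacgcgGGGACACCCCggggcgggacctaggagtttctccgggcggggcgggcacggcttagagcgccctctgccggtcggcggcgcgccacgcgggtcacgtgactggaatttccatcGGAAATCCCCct
Tnfaip3, downstream start, chr10:19011964-19012213, minus strand: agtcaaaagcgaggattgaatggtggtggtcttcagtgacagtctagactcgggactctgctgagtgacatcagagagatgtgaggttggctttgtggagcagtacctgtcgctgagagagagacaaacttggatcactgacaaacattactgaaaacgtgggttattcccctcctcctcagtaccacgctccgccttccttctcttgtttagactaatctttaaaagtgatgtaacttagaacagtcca
A match is a description of the letters and no evidence that a factor binds there.

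Of the 10 genes, 7 had an RPKM of 1 or more in each sort, against 30.2% of all genes. The 3 below were Nfkbiz, Nfkb2 and Relb, each under 1 in sort 2 and only Relb under 1 in sort 1. Rel alone was at 10 or more in each sort, which 5.55% of all genes did. The 10 levels had the same order in both sorts, from Rel through Nfkb1, Tnfaip3, Rela, Nfkbia, Nfkbie, Nfkbib, Nfkbiz and Nfkb2 to Relb. Neighbours in this order had ranges over the sorts that did not overlap in 6 of 9 pairs. The exceptions were Nfkbia with Nfkbie, Nfkbiz with Nfkb2, and Nfkb2 with Relb.

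**Figure D1:**
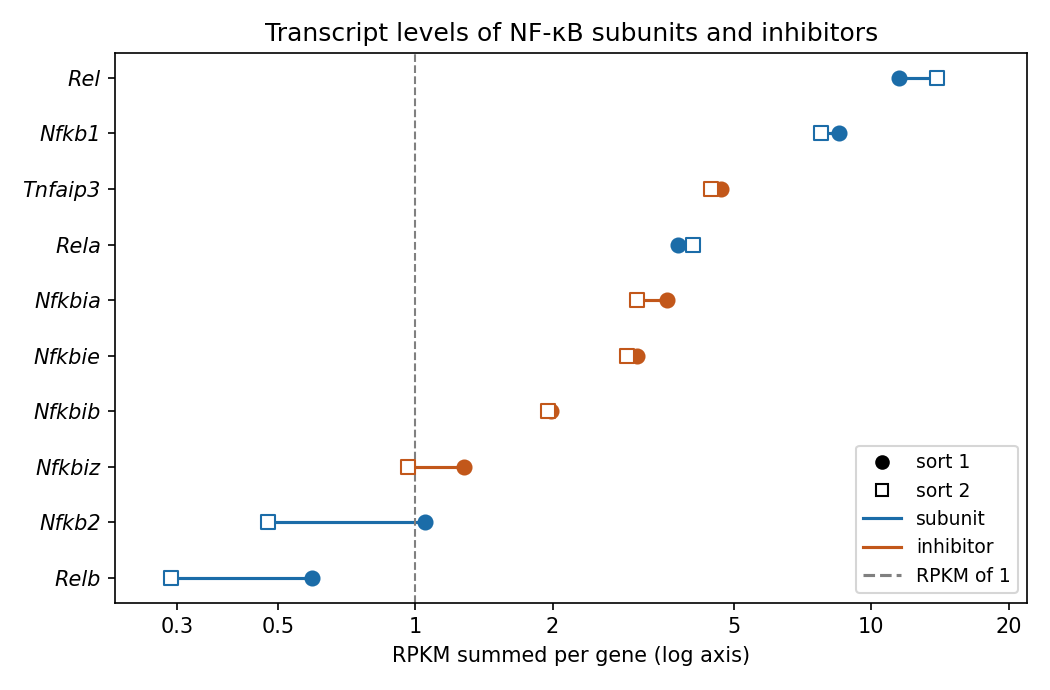
RPKM of each gene in sort 1 (filled circles) and sort 2 (open squares) on a log axis, with subunits in blue and inhibitors in orange. Rel and Nfkb1 lie to the right of every inhibitor, and Relb and Nfkb2 have the lowest levels and the widest gaps between sorts on this axis.

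Among the subunits, Rel had the highest RPKM in both sorts. By reads, Nfkb1 was ahead of Rel in sort 1 and Rel was ahead in sort 2. Rel, which encodes c-Rel, a subunit of lymphoid and myeloid cells, lies on chromosome 11 from 23741729 to 23770970 and had 1203 reads in sort 1 and 1462 in sort 2. Its RPKM was 11.5 and 13.9, or 12.7 ± 1.72 (SD, n = 2), which ranked it 1279th and 966th of all genes. The reads were scaled to a length of about 2588 bases, although the annotated transcript has 7466 bases, so the deposited gene model leaves out the distal part of the annotated last exon, whose reads were not analysed here. The 3 genes nearest to Rel in level, by distance in log2(RPKM + 1) over the 2 sorts, were Atp6v1d, Kif2a and Serbp1, at RPKM values of 11.3 to 11.6 in sort 1 and 13.8 to 14.1 in sort 2.

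Nfkb1, the source of p105 and p50, lies on chromosome 3 from 135584655 to 135691547 and had 1415 and 1300 reads. Its RPKM of 8.48 and 7.77, or 8.13 ± 0.502 (SD, n = 2), was below that of Rel in each sort. Rela, which encodes p65, the usual partner of p50, lies on chromosome 19 from 5637490 to 5648130 and had 414 and 447 reads. Its RPKM was 3.77 and 4.06, or 3.92 ± 0.205 (SD, n = 2). Rel therefore exceeded Rela by 3.05-fold in sort 1 and by 3.43-fold in sort 2, and Nfkb1 exceeded Rela by 2.25-fold and 1.91-fold. These are ratios of transcripts per length and not of proteins, and those of Rel rest on the shortened length given above.

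The genes of the p100 route, Nfkb2 and Relb, had the lowest levels of the 10. Nfkb2, on chromosome 19 from 46304737 to 46312090, had 126 reads in sort 1 and 57 in sort 2, at an RPKM of 1.05 and 0.476, or 0.764 ± 0.407 (SD, n = 2). Relb, on chromosome 7 from 19606222 to 19629438, had 53 and 26 reads, at an RPKM of 0.595 and 0.291, or 0.443 ± 0.215 (SD, n = 2). Both were higher in sort 1. Nfkb1 exceeded Nfkb2 by 8.07-fold in sort 1 and 16.3-fold in sort 2, and Rela exceeded Relb by 6.34-fold and 14.0-fold, so the distance between the subunits of the 2 routes was wide in both sorts and its size was not the same in each. The Nfkb2 level of sort 1 lay above the Relb levels of both sorts, while that of sort 2 lay between them.

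The classical IκB genes were at intermediate levels. Nfkbia, which encodes IκBα, the inhibitor degraded and resynthesised fastest after stimulation, lies on chromosome 12 from 55489409 to 55492647. It had 227 and 196 reads, at an RPKM of 3.57 and 3.07, or 3.32 ± 0.351 (SD, n = 2). Nfkbie, which encodes IκBε, lies on chromosome 17 from 45555716 to 45563168 and had 301 and 287 reads, at 3.07 and 2.92, or 2.99 ± 0.106 (SD, n = 2). The levels of IκBα and IκBε transcripts overlapped between sorts.

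Nfkbib, which encodes IκBβ, lies on chromosome 7 from 28758251 to 28766524 and had 156 and 153 reads, at an RPKM of 1.98 and 1.95, or 1.97 ± 0.0216 (SD, n = 2). Of its counted exons, 16.1% overlap Ccer2 on the opposite strand, and the sources used here do not give the strand setting of the counting, so its level is uncertain by the reads of that overlap. The summed RPKM of Nfkbia, Nfkbib and Nfkbie was 0.363 of the summed RPKM of Rel, Rela and Nfkb1 in sort 1 and 0.308 of it in sort 2. For each of the 3, the RPKM was below that of Rela and of Rel in both sorts.

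Nfkbiz encodes IκBζ, a nuclear IκB protein that acts with NF-κB on a subset of its targets. It lies on chromosome 16 from 55811377 to 55838641 and had 187 and 141 reads, at an RPKM of 1.28 and 0.965, or 1.12 ± 0.223 (SD, n = 2). All of these reads were assigned to the transcript that starts at 55822138, and the row of the pair of transcripts that start at 55838641 had 0 reads in both sorts, which allows up to 3 reads in each. The rows overlap along the gene, and the sources used here do not say how shared reads were divided, so the 0 is a result of the assignment as deposited.

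Tnfaip3, which encodes the ubiquitin-editing enzyme A20 that shuts off signalling upstream of the IκB kinase, was the most abundant of the inhibitors. It lies on chromosome 10 from 19000910 to 19015410 and had 825 and 783 reads, at an RPKM of 4.69 and 4.45, or 4.57 ± 0.174 (SD, n = 2). Both sorts were above both Rela levels. Of the Tnfaip3 reads, 87.6% in sort 1 and 92.2% in sort 2 were assigned to the transcript from the downstream start at 19011963, whose window printed above holds no κB match. The upstream start at 19015410, with 2 matches, had 12.4% and 7.79%, or 102 and 61 reads. The span of the shorter transcript lies within that of the longer, and the division of shared reads is unknown here as for Nfkbiz, so these shares do not measure the use of each start.

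Nfkb2 had 3 rows with different starts, and their shares were less alike. The row starting at 46305930 held all 126 reads of sort 1 and 37 of the 57 reads of sort 2. The row of the first start at 46304737, whose window holds 3 matches, had 0 reads in sort 1, which allows up to 3, and 20 in sort 2, while the row starting at 46305695 had 0 in both. The windows before each of the other starts, not printed here, hold 1 match. The shares of the first start differed between the sorts by more than the limit on a count of 0 allows. Its counted exons overlap a long non-coding RNA on the opposite strand by 77 bases, and the strand setting is unknown here. The rows overlap along the gene and the way shared reads were divided is unknown here, so these shares too do not measure the use of each start.

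As a group the 5 subunits summed to an RPKM of 25.4 and 26.5, and the 5 inhibitors to 14.6 and 13.4. The groups are those named at the outset, and Nfkbiz counts as an inhibitor although IκBζ acts with NF-κB on some targets. The inhibitors thus held 36.5% of the summed RPKM in sort 1 and 33.5% in sort 2, or 35.0% ± 2.13 (SD, n = 2). Rel alone held 28.8% and 34.9%, and Nfkb1 21.2% and 19.5%. The total over the 10 genes was 40.0 in sort 1 and 39.9 in sort 2, so the sum was close in both sorts while its make-up differed, with the larger shares of Rel in sort 2 and of Nfkb2 and Relb in sort 1.

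The sorts were compared by the log2 ratio of sort 2 to sort 1 of scaled read counts, with 2 reads added, and a gene was called past a fold of 2. With 1 library a sort, no test between the sorts was made, and the 95% exact binomial intervals of the plain ratio cover counting error only. Of the 10 genes 1 was called, against 10% of the 12347 genes with at least 10 reads over both sorts, so the count lies at the background share. The median absolute log2 ratio of the 10 was 0.16, and that of all these genes 0.33. The sets were not matched for reads, and genes with 50 to 250 reads over both sorts had 0.405. The lower value of the 10 is therefore no measure of steadier levels. Nfkb2 was the gene called, 2.07-fold lower in sort 2 with a log2 ratio of -1.05 (interval -1.55 to -0.61), beside 6.04% of all genes called higher in sort 1. Among genes with 50 to 250 reads over both sorts that share was 7.41%. With total counts in place of TMM scaling the log2 ratio of Nfkb2 was -0.998 and just short of the threshold, and after subtraction of the median for its GC content it was -0.67.

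Relb followed with a log2 ratio of -0.91 (interval -1.70 to -0.26), short of the threshold, and from the deposited RPKM values it passed with -1.03. Rel had a log2 ratio of 0.35 (interval 0.24 to 0.46) and Nfkbiz -0.34 (interval -0.67 to -0.02). For these 4 genes the counting interval did not hold 0. For the other 6, Nfkb1, Rela, Nfkbia, Nfkbib, Nfkbie and Tnfaip3, it held 0, with log2 ratios between -0.14 and 0.18. In these ratios no difference beyond counting error was seen. With the GC median subtracted, Rela at 0.57, Nfkbib at 0.40, Nfkbie at 0.24 and Nfkb1 at 0.07 lay above their intervals. Nfkbia and Tnfaip3 stayed within theirs.

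**Figure D2:**
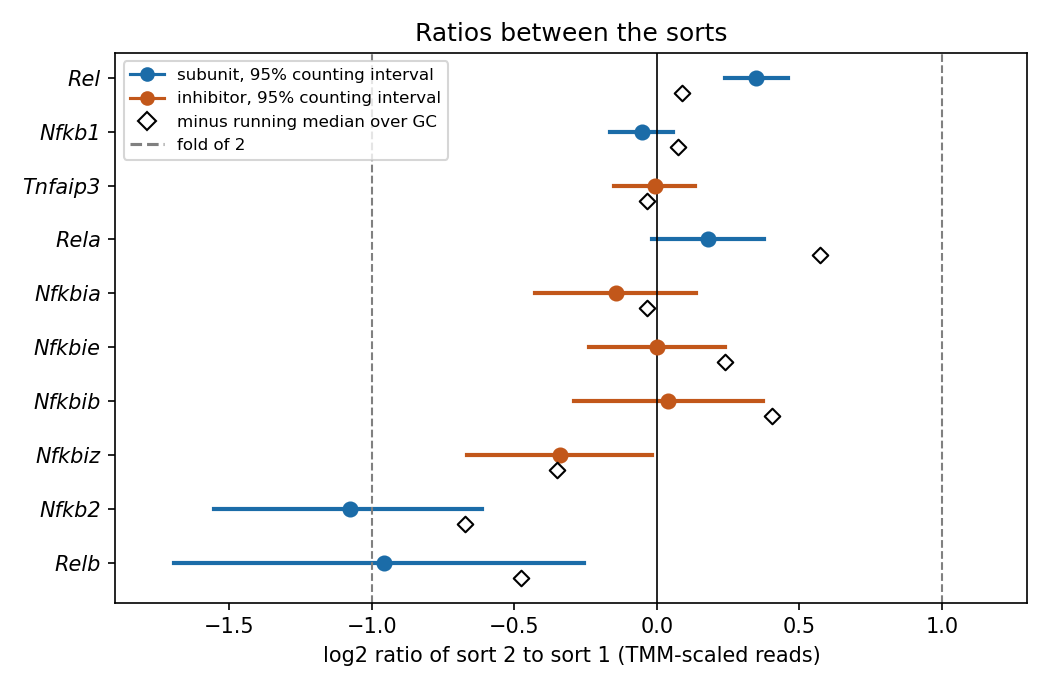
Log2 ratio of sort 2 to sort 1 from TMM-scaled reads with no reads added (circles) and its 95% counting interval (bars); diamonds show the ratio with 2 reads added minus the running median of genes of like GC content. Nfkb2 and Relb lie farthest to the left, and neither diamond reaches the dashed line of a 2-fold difference.

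Over all genes these ratios moved with transcript GC content, and the values belong beside those of the NF-κB genes. The ratio had a Spearman correlation of -0.54 with GC content over the 8680 genes that had 100 reads or more, given as a description since the genes share both libraries. The median log2 ratio was 0.35 in the tenth of genes with the lowest GC content and -0.34 in the tenth with the highest. Rel, at a GC content of 42.5% over the annotated transcript and 44.4% over the part that was counted, had a ratio 0.09 above the running median of genes of like GC content. For Nfkb2 at 59.3% and Relb at 61.1% the difference from that median was -0.67 and -0.48. For Rela, at 59.4% close to Nfkb2 in GC content, it was 0.57, so these subunits of like GC content differed in opposite directions from genes like them.

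**Figure D3:**
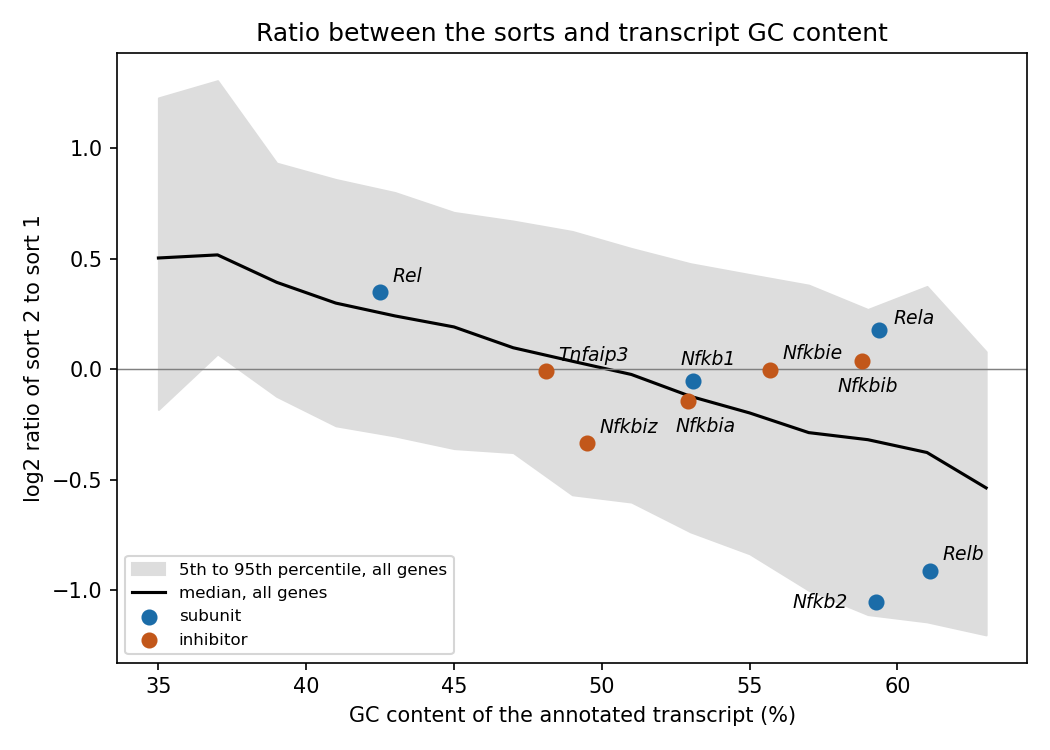
Log2 ratio of sort 2 to sort 1 against transcript GC content in percent, with the median of all genes with at least 100 reads (line), their 5th to 95th percentile in bins of 2 percentage points (grey) and the subunits (blue) and inhibitors (orange). The median falls from left to right, and all 10 points lie within the grey band, with Nfkb2 near its lower edge and Rela near its upper edge.

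Some markers of other cells were also lower in sort 2, as Nfkb2 and Relb were, while the 5 eosinophil markers all had log2 ratios above 0. Of these, Ccr3 at 0.11 and Siglec5 at 0.08 were near it. After subtraction of the GC median Ccr3 was at -0.29 and Siglec5 at 0.06, while Prg2, Epx and Il5ra stayed above 0. The neutrophil markers were mixed, with 5 of 7 below 0 and none past a fold of 2. Among them Ltf was at -0.75 and Ngp at -0.68, while Elane was at 0.46 and Mpo at 0.18. All 8 monocyte and macrophage markers had log2 ratios below 0, though Vcam1 at -0.04 and Ly6c2 at -0.14 were near it. Of the 8, 4 were past a fold of 2, beside 6.04% of all genes called higher in sort 1. The summed RPKM of the 8 was 79.1 and 62.4. Among those called, Cd163, a scavenger receptor of marrow macrophages, had 163 and 35 reads, and C1qb had 203 and 90. C1qa, a complement subunit, and Marco, also called, had few reads, 16 and 0 and 12 and 4. The B cell markers summed to 7.28 and 4.87, with 3 of 5 below 0 and 1 called, Cd79a, at 133 and 57 reads. Of the T and NK cell markers, all under an RPKM of 1, each of the 4 with at least 10 reads was below 0. The dendritic cell markers summed to 2.00 and 1.68, with 3 of 5 below 0 and a median log2 ratio of -0.03. The basophil and mast cell markers summed to 21.6 and 24.2, with 2 of 5 below 0, Cpa3 being at 6.10 and 10.1 and Prss34 at 4.37 and 2.55. Rn45s, the ribosomal RNA precursor, took 9.07% of the reads of sort 1 and 0.963% of those of sort 2. The part of these cells, of ribosomal RNA and of the sex of the pools in the Nfkb2 and Relb values was not tested.

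Besides the 10 genes, 103 genes of the pathway were examined in lists by role, and 55 of them (53.4%) reached an RPKM of 1 in both sorts, against the 30.2% of all genes. Of the 88 with at least 10 reads, 4 were called with more in sort 2, beside 4% of all genes, and 5 with more in sort 1, beside 6.04%. Their median log2 ratio was 0.02, and that of all genes 0.00.

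**Figure D4:**
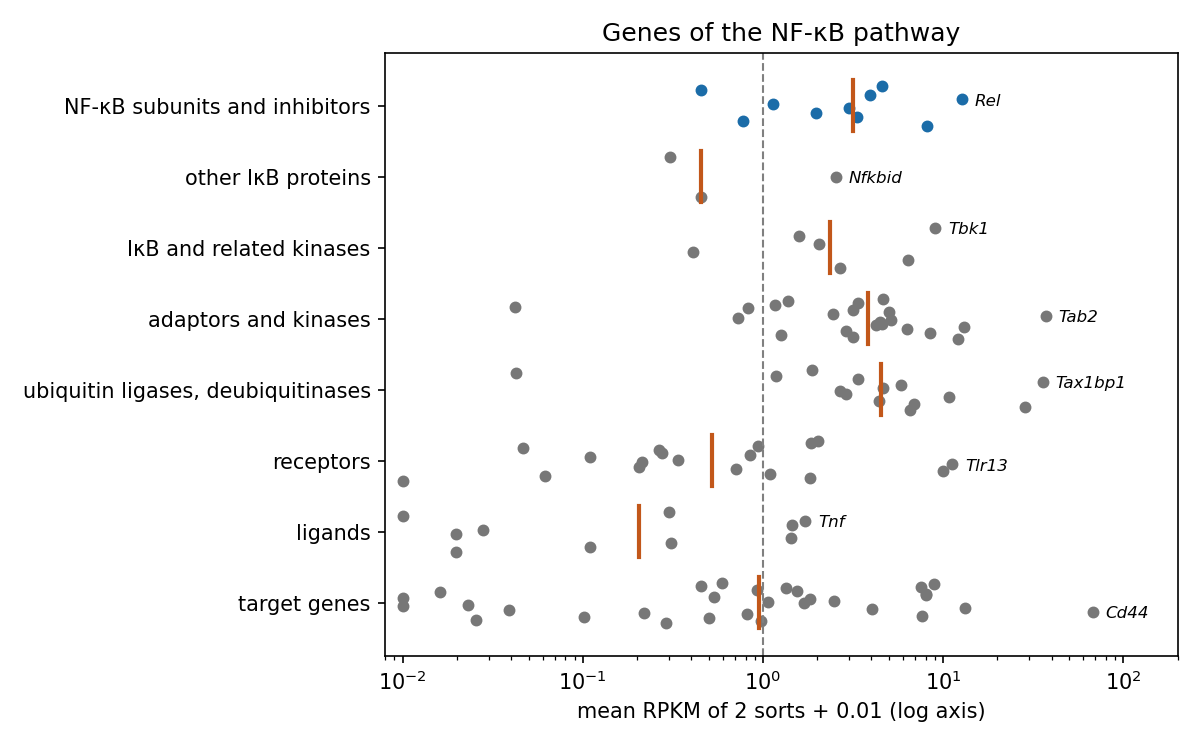
Mean RPKM of the 2 sorts plus 0.01, on a log axis, for each gene (points) of the NF-κB genes and of 7 pathway lists, with list medians as vertical bars and an RPKM of 1 dashed. Adaptor and ubiquitin genes extend to higher levels than Rel, while most receptors and ligands lie below 1.

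Of the 6 genes for IκB kinases and their relatives, 5 reached an RPKM of 1, with list medians of 2.11 and 2.58 and none called. Tbk1, an IκB kinase relative of antiviral signalling, had 9.04 ± 0.990, Ikbkb, the main kinase of the classical route, 6.37 ± 0.474, Chuk, which phosphorylates p100, 2.67 ± 0.707, and Ikbkg, the regulatory subunit NEMO, 2.02 ± 0.0394 (SD, n = 2). Among the other IκB proteins, Nfkbid had 3.05 and 2.00, while Bcl3 at 0.242 and 0.644 and Nfkbil1 at 0.420 and 0.168 were below an RPKM of 1 and were called in opposite directions from 66 and 35 reads in all.

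Adaptors and kinases of the receptor complexes had 17 of 22 genes at an RPKM of 1 and list medians of 3.75 and 3.49. Tab2, which brings the kinase TAK1 to ubiquitin chains, had 37.2 ± 7.22, Irak4, the first kinase of Toll-like receptor signalling, 13.0 ± 1.31, Bcl10 12.1 ± 0.785 and Irak1 8.41 ± 0.450 (SD, n = 2). Of the 21 with at least 10 reads, 2 were called, both higher in sort 1, beside 6.04% of all genes. They were Traf2, an adaptor of TNF receptors, with an RPKM of 1.66 and 0.641, and Tradd, with 63 and 28 reads. The ubiquitin ligases and deubiquitinases had 12 of 14 genes at an RPKM of 1, and 1 of the 14 was called, Tnip3, from 8 and 2 reads. Tax1bp1, an A20 partner, had 35.9 ± 6.10, Birc3, a ligase that limits the p100 route and is itself an NF-κB target, 28.4 ± 0.779, Itch, a further A20 partner, 10.8 ± 0.887, and Cyld, a deubiquitinase, 6.86 ± 0.669 (SD, n = 2). Each of these 4 was above Tnfaip3 in both sorts.

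Receptors that feed the pathway had 5 of 18 genes at an RPKM of 1 in each sort, close to the share of all genes. The highest were Tlr13, a receptor for bacterial RNA, at 11.3 ± 2.03, and Il1rl1, the IL-33 receptor, at 8.72 and 11.3 in the sorts, followed by the TNF receptors Tnfrsf1b at 2.00 ± 0.0463 and Tnfrsf1a at 1.84 ± 0.311 (SD, n = 2). Of the 17 receptors with at least 10 reads, 3 were called, all higher in sort 2, beside 4% of all genes. Tnfrsf13c, the BAFF receptor, was among those called, with an RPKM of 0.583 and 1.27. The others called had few reads, Tnfrsf11a 2 and 13 and Tlr9 22 and 50. Cd40 had 0 reads in both sorts. Of 10 ligands only Tnf, at 1.89 and 1.52, and Il1b, at 1.38 and 1.45, reached an RPKM of 1 in both sorts, with Ltb at 1.89 and 0.967 and Il1a at 0.242 and 0.357.

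Of 30 target genes known from stimulated cells 13 reached an RPKM of 1 in each sort, against 30.2% of all genes. The list medians were 0.778 and 0.983, and those of all genes 0.108 and 0.0896. The highest were the adhesion receptor Cd44 at 67.8 ± 1.63, the growth factor Csf1 at 13.2 ± 0.592, the adhesion molecule Vcam1, also in the macrophage list, at 8.92 ± 0.478 and the interferon-response factor Irf1 at 8.05 ± 1.58 (SD, n = 2). Gadd45b, a stress-response gene, was the target called, higher in sort 1 at 1.46 against 0.661. Csf2 and Il12b had 0 reads in both sorts, which allows up to 3 reads in each. These genes have other regulators too, so the list does not measure NF-κB activity.

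Immediate early genes, which respond to handling and stimulation within minutes, are given for comparison with Nfkbia, Nfkbiz and Tnfaip3, which are also rapidly induced. Of 14 genes 11 reached an RPKM of 1 in both sorts, against 30.2% of all genes, with list medians of 5.82 and 4.80. Zfp36, which destabilises cytokine mRNAs, had 244 ± 25.3, the phosphatase Dusp1 176 ± 32.7, Btg2 51.9 ± 0.673 and Klf6 27.4 ± 1.73 (SD, n = 2). These 4 are the highest of the list, and Tnfaip3, at 4.69 and 4.45, lay near and below the list medians. Nfkbia at 3.57 and 3.07 and Nfkbiz at 1.28 and 0.965 lay further below them. Fos at 14.5 and 19.2, Junb at 10.2 and 5.8 and Ier2 at 6.28 and 5.45 were above Tnfaip3. Jun at 2.87 and 3.24 and Jund at 1.88 and 1.41 were below it. Egr1, a zinc-finger factor, was the 1 gene of the 14 called, beside 10% of all genes called in either direction. Its RPKM was higher in sort 1, at 4.12 and 1.65.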

How the data were processed

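Poly(A) RNA of 2 sorts of marrow eosinophils was analysed. Reads were aligned with STAR 2.4.0c to mm10, per the submitters' processing notes, while the sources used here do not give the counting program or its strand setting. For 26099 groups of RefSeq transcripts the authors deposited read counts, as whole numbers, and RPKM values. Both were summed per gene symbol. The deposited RPKM values imply divisors of 40.4 and 40.5, in units of 1e6 reads, above the table totals, so they are lower than values from the table totals would be. Counts were scaled by TMM (edgeR 4.0.16 in R 4.3.3) and, as an alternative, by DESeq2 1.42.0 size factors. Log2 ratios used a prior count of 2, on genes with at least 10 reads. With 1 group, edgeR's quasi-likelihood test could not be fitted, and no p-value is given. The ratios and intervals were tested on simulated data that held set folds and counting error only. That test therefore says nothing of the GC trend or of other differences between the sorts.

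GC content came from GENCODE M21 transcripts matched by RefSeq accession, for 98.5% of these genes and all 10 NF-κB genes, and its running median was taken over 501 genes. Intervals are exact Clopper-Pearson intervals at 95%, and like the limit of 3 reads set for a count of 0 they cover only counting error. An SD from 2 libraries is imprecise. Pathway genes were named as the 4 highest of each list and those past a fold of 2 with a mean of at least 50 reads, the NF-κB genes were all named, and the 3 genes nearest in level were named for Rel. Cd40, Tnfrsf11a, Tlr9, Tradd, Tnip3, Fos, Junb, Ier2, Jun, Jund, Rn45s, Csf2, Il12b, Ccer2 and the single cell markers were named after their values were seen. The NF-κB genes and the lists were chosen with earlier results of these data known. Ly6g was listed but not analysed here.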

Additional observations from a re-analysis of the deposited data

How the results depend on the processing

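The number of the 10 genes at the minimum RPKM was 8 at a minimum of 0.5, 6 at 2, 10 at a CPM of 1, and 7 to 9 with either sort left out. At an RPKM of at least 10 there was 1 gene, 2 at a minimum of 5 and 0 at 20. The number past the fold between sorts was 1, and it was 2 with the deposited RPKM values, 2 at a fold of 1.5, 0 with total counts and 0 after subtraction of the GC median. It stayed at 1 with DESeq2 size factors and with a prior count of 0.5. The filter on reads could not change it, because all 10 genes had more than 10 reads. The share of inhibitors ranged from 33.5% to 36.5% with either sort left out, and from 33.4% to 34.3% under the other settings. With RPKM scaled by TMM factors 7 of 9 neighbours were separated in place of 6, Nfkbia and Nfkbie being added. Pathway genes detected numbered 69 at a minimum of 0.5, 40 at 2, and 59 to 61 with either sort left out. The level of Tnfaip3 was 4.11 from its highest row alone in place of 4.57. Of 50 log2 ratios of single genes under other settings, 5 left the counting interval, all with the GC median subtracted. Other minimums for pathway genes, and leaving out a sort for counts and shares, were chosen after seeing the data. The cause of the changes was not tested. No paired analysis was possible because both sorts belong to 1 group. Depth limits Relb and Nfkb2 most, with 26 and 57 reads in sort 2.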
